A study of Anas platyrhynchos with 18 samples.

Results

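Between embryonic day 11 and week 10 after hatch, the levels of many miRNAs in duck dorsal skin changed. Even so, 15 miRNAs were among the 20 highest by mean at both stages. The 3 main strands of the miR-29 family, known in mammals for repressing collagens and other matrix proteins, rose from at most 6.24 CPM (counts per 1000000 counts on miRNAs) in any library to between 59.1 and 554 CPM, and miR-203a, which promotes keratinocyte differentiation in mammals, rose 60.0-fold to 25744 ± 6669 CPM (SD, n = 3). In the other direction miR-206, a skeletal muscle miRNA, fell from 833 ± 311 CPM to 6 counts in 3 libraries together. The related miR-130, miR-301 and miR-454 were down-regulated in 10 of 12 members and up-regulated in none. Over all miRNAs tested, 34.9% were down-regulated. miR-130c-3p of this list was higher at 10WK by less than 2-fold. Of these 12, miR-454-5p reached 1 CPM only at 11EM. Of the 246 miRNAs compared, 59 were up-regulated and 87 down-regulated at 10WK.

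The comparison is that of the youngest with the oldest of 6 stages of Pekin duck skin, 11EM (day 11 of embryonic development) and 10WK (10 weeks of age), with 3 libraries each. Per the study's methods the birds were white Pekin ducks of 1 company and of similar genetic background, the skin came from the back over the thoracic vertebrae, no treatment was given, and the posthatch ducks had free access to commercial feed. Feather follicles begin to form around the younger age, and the plumage is mature at the older one. The labels give neither sex nor animal for a library, so that the replicates may share animals or pools and the p-values measure the spread between these libraries. Whole skin was sequenced. A lower value can therefore come from fewer cells of a type or from less of a miRNA per cell, and these cannot be told apart. A miRNA was included when 2 or more of the 6 libraries reached 1 CPM, which gave 246 of the 353 miRNAs with a count in the series. Of these, 191 reached 1 CPM in all 6 libraries, 24 entered only through 11EM and 13 only through 10WK. Another 83 miRNAs had counts in the 6 libraries but stayed below the limit, with at most 68 counts in all. The values deposited are raw counts of reads matched to chicken miRNAs, and CPM here divides by the sum of those counts. The 11EM libraries held 12834234 to 15839714 counts and the 10WK libraries 3072942 to 5668932, so that 3 counts, the smallest amount taken as a signal, stood for at most 0.234 CPM at 11EM and at most 0.976 CPM at 10WK; such limits cover counting error only.

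A miRNA is cut from one arm (5p) or the other (3p) of a hairpin, and its seed, bases 2 to 8 from the 5′ end, pairs with the messenger RNAs it represses. miRNAs with the same seed form a family and share many targets, whatever locus they come from. In skin, miR-203 and miR-205 are known as abundant miRNAs of the epidermis, the let-7 family as one that accumulates with differentiation across animals, and the miR-17 to miR-92 cluster as one of dividing cells. The mature sequences below are those in the study's own annotation of chicken miRNAs, with the seed in capitals. The first set shows miRNAs among the largest rises and falls by fold, which are described first below. The duck reads were assigned by these chicken sequences, and genome positions are not used here.
miR-29a-3p: uAGCACCAuuugaaaucgguu
miR-29b-3p: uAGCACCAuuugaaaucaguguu
miR-29c-3p: uAGCACCAuuugaaaucggu
miR-203a: gUGAAAUGuuuaggaccacuug
miR-184-3p: uGGACGGAgaacugauaagggu
miR-3538: gUUCGGUGaugaaaccaugga
miR-206: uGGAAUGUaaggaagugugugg
miR-128-2-5p: gGGGGCCGuuacacuguaagaga
miR-490-3p: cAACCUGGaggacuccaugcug
miR-490-5p: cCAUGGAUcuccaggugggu
miR-551-5p: gAAAUCAAggguggguaagaccu
miR-183: uAUGGCACugguagaauucacug
miR-1805-3p: uGUAUUGGaacacuacagcuc
miR-18b-3p: uACUGCCCuaaaugcuccuucuggc

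The second set shows relatives that share a seed, so that their values given below can be set beside their sequences. Within the closest pairs the bases that differ are written as first member, position from the 5′ end, second member. miR-205a and miR-205b differ by U1C and G18A, miR-30a-5p and miR-30e-5p by C13U over the length of the shorter one, miR-10a-5p and miR-10b-5p by U12A, miR-181a-5p and miR-181b-5p by A9U, C10U and A21G, and let-7a-5p and let-7b by A17G and A19G. miR-32-5p and miR-92-3p share a seed and differ at 10 positions outside it.
let-7a-5p: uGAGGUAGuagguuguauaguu
let-7b: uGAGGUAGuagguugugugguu
let-7k-5p: uGAGGUAGuagauugaauaguu
miR-205a: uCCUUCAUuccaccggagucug
miR-205b: cCCUUCAUuccaccggaaucug
miR-30a-5p: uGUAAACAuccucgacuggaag
miR-30e-5p: uGUAAACAuccuugacugg
miR-181a-5p: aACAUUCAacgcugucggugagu
miR-181b-5p: aACAUUCAuugcugucgguggg
miR-10a-5p: uACCCUGUagauccgaauuugu
miR-10b-5p: uACCCUGUagaaccgaauuugu
miR-34a-5p: uGGCAGUGucuuagcugguuguu
miR-34c-5p: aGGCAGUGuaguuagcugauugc
miR-449a: uGGCAGUGuauguuagcuggu
miR-449c-5p: uGGCAGUGcguguuagcuggcugu
miR-1b-3p: uGGAAUGUuaagaaguaugua
miR-32-5p: uAUUGCACauuacuaaguugc
miR-92-3p: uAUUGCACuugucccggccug
miR-221-3p: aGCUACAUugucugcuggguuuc
miR-222a: aGCUACAUcuggcuacugggucuc
miR-130c-3p: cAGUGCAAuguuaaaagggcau
miR-454-3p: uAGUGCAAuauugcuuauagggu

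Called miRNAs had an adjusted p under 0.05 in the edgeR quasi-likelihood test, adjusted over all 252 miRNAs of the series that were tested, and a change of at least 2-fold. Of those 252, 58.7% were called in this comparison, 23.8% up and 34.9% down. Among the 246 members, 59 were up and 87 down, and 100 were not called, of which 24 had an adjusted p under 0.05 with less than a 2-fold change. The median log2 fold change (10WK over 11EM) was 2.35 over the up-regulated members, -2.85 over the down-regulated members and -0.25 over all members. More than 4-fold changes were found for 38 up and 63 down, and more than 16-fold changes for 12 up and 19 down. For 143 of the 146 called members the 3 libraries of a stage did not overlap with those of the other (72.6% of all miRNAs tested were free of overlap), and the exceptions were miR-24-5p, miR-29b-2-5p and miR-34a-3p, each with a mean under 4 CPM. For a single miRNA an exact permutation test of 3 libraries against 3 cannot go below p = 0.1, so all p-values are from the fit across miRNAs.

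The libraries of a stage were closer to each other than to the other stage. Over the 142 miRNAs with at least 10 CPM in all 6 libraries, the median absolute log2 difference was 0.27 to 0.36 between libraries of 11EM and 0.15 to 0.24 between those of 10WK, against 1.08 to 1.24 over the 9 pairs of an 11EM and a 10WK library. Replicate 3 of 11EM stood apart in the cartilage miRNAs, in the miR-34 and miR-449 list and in miR-10b-5p (below). It was the only 1 of the 6 libraries with a clean-read share of the higher class in the study's read statistics. Without it, 73 members were up and 74 down. Fold changes of the test are relative to the miRNA counts of each library, with the totals scaled by TMM factors. These factors were 0.991 to 1.07 at 11EM and 0.861 to 0.935 at 10WK. CPM values leave them out, so folds from the test differ from the ratios of CPM. Scaled to the clean reads of each library instead, in which every other small RNA is also counted, log2 fold changes shifted by a median of -1.73, and 22 members were up and 165 down. A member that rose by less than about 1.73 on the log2 scale is therefore lower at 10WK on that scale.

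**Figure D1:**
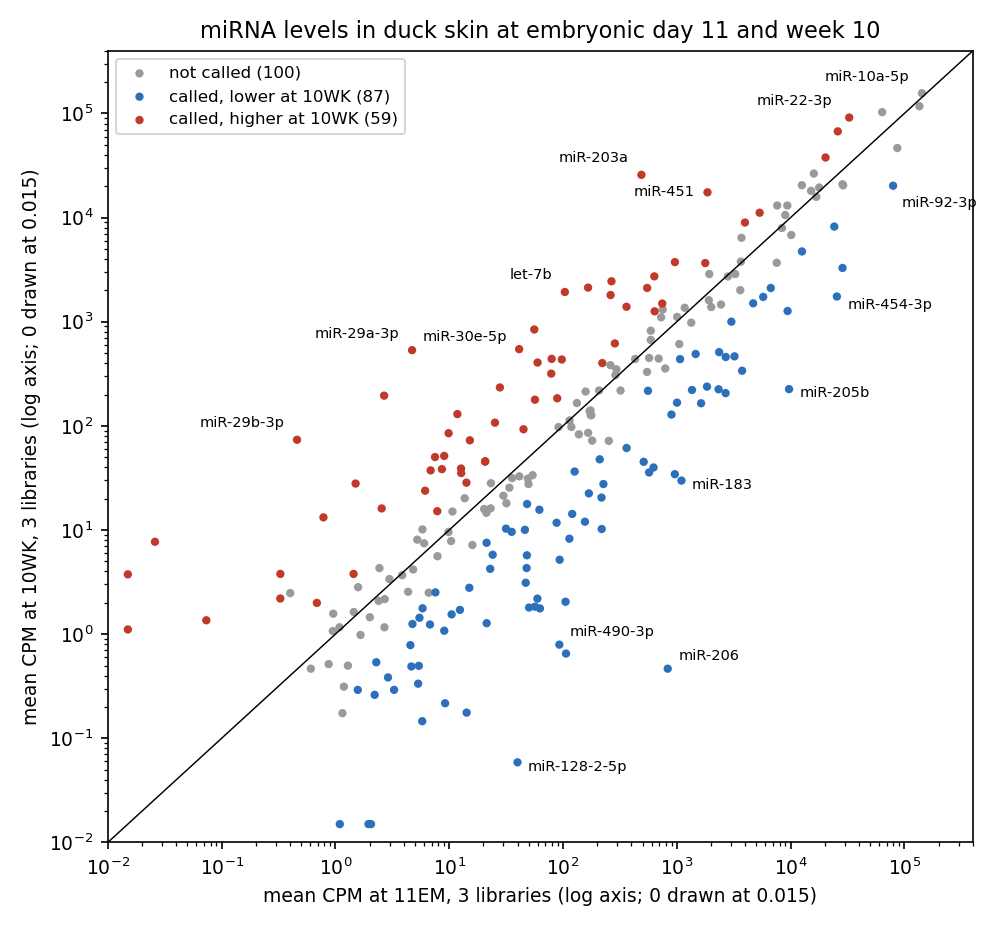
Mean CPM at 11EM (x axis) against mean CPM at 10WK (y axis), both on log axes, for the 246 miRNAs, each mean over 3 libraries; colours mark the 59 called higher, the 87 called lower and the 100 not called, and the line marks equal values. miR-29b-3p and miR-203a lie far above the line and miR-206 and miR-128-2-5p far below it; scaled to clean reads, log2 fold changes would shift by a median of -1.73 and 22 would be called higher.

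Among the largest rises were the main strands of the miR-29 family, which pair with the messenger RNAs of several collagens and of elastin in mammals. miR-29a-3p had 6.24, 5.11 and 2.81 CPM at 11EM and 545, 554 and 501 CPM at 10WK, and rose 128-fold (log2 fold change 7.005, SE 0.37, edgeR adjusted p = 6.6e-10). miR-29b-3p had 0.661, 0.253 and 0.468 CPM at 11EM and 59.1, 76.6 and 84.9 CPM at 10WK, a 181-fold rise (log2 fold change 7.50, SE 0.52, edgeR adjusted p = 8.69e-09). miR-29c-3p, which is miR-29a-3p without its last base, had 3.60, 2.97 and 1.48 CPM at 11EM and 201, 206 and 178 CPM at 10WK (log2 fold change 6.36, SE 0.36, edgeR adjusted p = 9.11e-10). No library of 11EM came near any library of 10WK for these 3 miRNAs, and the highest 11EM value, 6.24 CPM, was far under the lowest 10WK value of all 3, 59.1 CPM. The 3 star strands among the members were also called up. miR-29b-1-5p had 0.294, 0.379 and 0.312 CPM at 11EM and 2.29, 2.35 and 1.95 CPM at 10WK on 14 and 28 counts (log2 fold change 2.88, SE 0.51, edgeR adjusted p = 0.000132). miR-29a-5p had no count at 11EM and 46 counts at 10WK, at least 52.9-fold higher against a floor of 3 counts over the 11EM libraries together, and miR-29b-2-5p, with 0 and 15 counts, was at least 15.6-fold higher. All 6 members of the family were called up, beside 23.8% of all miRNAs tested. Their median log2 fold change was 6.74 (6.04 with these star strands at their bounds) against -0.26 over all miRNAs tested. On the clean-read scale the median was 5.40 with 5 called. Of the 6, however, 4 had entered only through 10WK, and miR-29c-5p stayed under the limit, so that this count and median also reflect the rule of inclusion. miR-29a-3p and miR-29c-3p reached 1 CPM in every library.

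Of the miRNAs among the 20 highest at 10WK, miR-203a had the largest fold increase. It had 737, 493 and 237 CPM at 11EM and 22482, 33416 and 21334 CPM at 10WK (log2 fold change 5.91, SE 0.42, edgeR adjusted p = 1.02e-08) and moved from rank 82 to rank 9 by mean CPM. All 10WK libraries lay at least an order of magnitude above all 11EM libraries, while the 11EM libraries themselves spread widely around their mean (log2 fold change 6.495 without replicate 1 of 11EM). miR-184-3p, an epithelial miRNA found in the cornea and epidermis of mammals, had 17.5, 74.1 and 76.4 CPM at 11EM and 748, 642 and 1137 CPM at 10WK, a 17.3-fold rise (log2 fold change 4.11, SE 0.58, edgeR adjusted p = 1.57e-05). For miR-3538, a chicken miRNA, 1.47, 0.631 and 2.42 CPM at 11EM and 28.8, 13.1 and 42.0 CPM at 10WK were counted (log2 fold change 4.44, SE 0.74, edgeR adjusted p = 7.5e-05). miR-449a, known from cells with motile cilia in vertebrates, had 1.76, 0.126 and 0.468 CPM at 11EM and 14.5, 19.3 and 5.86 CPM at 10WK and rested on 32 and 174 counts (log2 fold change 4.27, SE 0.85, edgeR adjusted p = 0.000381). For both, separate stages were a condition of the selection, and libraries varied widely. The log2 fold change was 5.15 for miR-3538 without replicate 3 of 11EM and 5.84 for miR-449a without replicate 1 of 11EM. miR-449a had entered only through 10WK, the stage where it is high.

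In the let-7 family, which accumulates in differentiating tissue and shares the seed GAGGUAG, the increase was uneven. let-7b had 104, 114 and 93.3 CPM at 11EM and 1849, 2012 and 1930.4 CPM at 10WK and rose 21.2-fold (log2 fold change 4.41, SE 0.24, edgeR adjusted p = 6.6e-10), and let-7k-5p had 159, 139 and 200.2 CPM at 11EM and 2006, 2154 and 2221 CPM at 10WK and rose 14.8-fold (log2 fold change 3.88, SE 0.21, edgeR adjusted p = 6.73e-10). The abundant let-7f-5p had 10528, 12889 and 14312 CPM at 11EM and 21509.7, 18899 and 20985 CPM at 10WK with a change under 2-fold (log2 fold change 0.90, SE 0.16, edgeR adjusted p = 0.000131), and let-7c-5p 2297, 2502 and 3648 CPM at 11EM and 2773, 2823 and 2558 CPM at 10WK with overlapping stages (log2 fold change 0.15, SE 0.16, edgeR adjusted p = 0.425). The rise was thus largest for let-7b and let-7k-5p, the main strands with the lowest values at 11EM, and let-7c-5p, a base away from let-7b, was not called. let-7a-5p and let-7j-5p carry 1 and the same mature sequence, and their counts stood at a ratio of 3.00 to 3.05 in all 6 libraries, so they are parts of 1 pool. Together that pool had 5896, 7229 and 8269 CPM at 11EM and 15100, 15019 and 14265 CPM at 10WK. Of the 8 main strands 4 rose and none fell, beside 23.8% called up and 34.9% called down over all miRNAs tested. Their median log2 fold change was 1.11. On the clean-read scale, where the median turned to -0.63, 2 were called up and 1 down. Without replicate 3 of 11EM 7 of the 8 were up, and without replicate 2 of 11EM also 7. Of the 7 passenger 3p strands 4 rose and 2 fell, again with a turn of the median from 1.13 to -0.59 on the clean-read scale. let-7j-3p rose 9.75-fold to 85.0 ± 15.3 CPM, and let-7c-3p fell 9.78-fold to 4.31 ± 0.513 CPM.

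**Figure D2:**
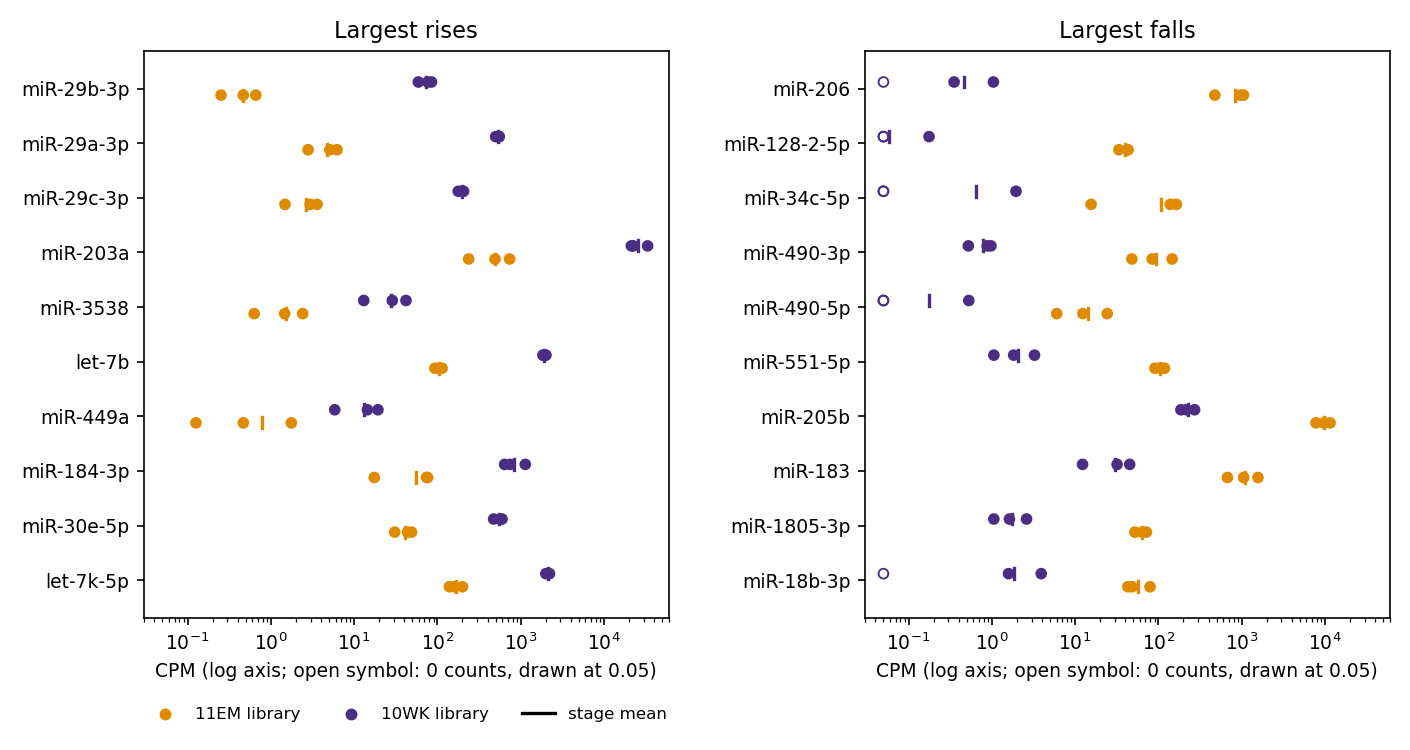
CPM on a log axis in each of the 6 libraries for the 10 called miRNAs with the largest rises (left) and the 10 with the largest falls (right) that averaged 10 CPM or more in a stage and did not overlap; dots are libraries, short bars stage means, and open dots libraries without a count. Separation of the 11EM and 10WK libraries was a condition for all 20. Open dots occur at 10WK for miR-206, miR-128-2-5p, miR-34c-5p, miR-490-5p and miR-18b-3p. Scaled to clean reads, these 20 keep their directions.

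The largest fall was that of miR-206, a miRNA of skeletal muscle precursors and fibres. It had 476, 1052 and 970.1 CPM at 11EM and 0.353, 1.05 and 0 CPM at 10WK, or 35605 counts against 6 (log2 fold change -10.55, SE 2.39, edgeR adjusted p = 0.00107). Every 11EM library had at least 476 CPM and no 10WK library exceeded 1.05 CPM. With so few reads at 10WK the fitted value moves with single libraries, here to -11.59 without replicate 2 of 10WK, and to -12.58 with the replicate block. miR-128-2-5p, the 5p strand of a miR-128 hairpin, had 43.0, 43.0 and 33.6 CPM at 11EM and 0.176, 0 and 0 CPM at 10WK. With 1698 counts against 1, the ratio of CPM was 505 with a 95% exact interval of 90.4 to 19941 that covers counting error only (log2 fold change -8.59, SE 0.93, edgeR adjusted p = 8.79e-07; -11.42 without replicate 1 of 10WK, the only library with a count). The strand of the other hairpin, miR-128-1-5p, with the same seed, was still counted at 10WK with 22.5 ± 0.859 CPM and fell 6.60-fold. miR-34c-5p had 139, 165 and 15.6 CPM at 11EM and 0, 0 and 1.95 CPM at 10WK (log2 fold change -7.47, SE 1.15, edgeR adjusted p = 3.35e-05). Its low replicate at 11EM was replicate 3, and 2 of the 10WK libraries had no count. Without replicate 3 of 10WK its log2 fold change was -12.88, and without replicate 2 of 11EM or replicate 1 or 2 of 10WK it was -6.75, -6.65 and -6.87. All of miR-206, miR-128-2-5p and miR-34c-5p had entered only through 11EM, so they passed the limit through the stage where they are high.

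Both strands of miR-490, whose hairpin lies in an intron of a muscarinic acetylcholine receptor gene in human, were among the largest falls. miR-490-3p had 48.1, 146 and 84.4 CPM at 11EM and 0.882, 0.523 and 0.976 CPM at 10WK (log2 fold change -6.68, SE 0.59, edgeR adjusted p = 9.26e-08) and miR-490-5p 6.02, 24.3 and 12.4 CPM at 11EM and 0.529, 0 and 0 CPM at 10WK (log2 fold change -5.72, SE 0.98, edgeR adjusted p = 0.000164). For the latter 626 counts stood against 3, a ratio of 62.0 with a counting interval of 21.1 to 301. Both strands had entered only through 11EM, the stage where they are high, and separate stages were a condition of the selection. Replicate 2 of 11EM was the highest for both. Without it the log2 fold changes were -5.88 and -4.77, and without replicate 1 of 10WK, the only 10WK library with a count, miR-490-5p had -9.96. miR-551-5p had 90.9, 118 and 107 CPM at 11EM and 1.06, 1.83 and 3.25 CPM at 10WK (log2 fold change -5.55, SE 0.38, edgeR adjusted p = 8.29e-09), and miR-1805-3p, a chicken miRNA, 64.2, 52.3 and 71.8 CPM at 11EM and 1.06, 2.61 and 1.63 CPM at 10WK (log2 fold change -4.98, SE 0.35, edgeR adjusted p = 8.69e-09). Both varied little within 11EM and had at most 3.25 CPM at 10WK. miR-183, known from sensory cells of the ear and the skin, had 1568, 1056 and 676 CPM at 11EM and 31.9, 12.3 and 45.2 CPM at 10WK (log2 fold change -4.99, SE 0.54, edgeR adjusted p = 8.77e-07). miR-18b-3p, a minor strand of the miR-106 cluster, had 48.3, 79.4 and 43.0 CPM at 11EM and 1.59, 3.92 and 0 CPM at 10WK (log2 fold change -4.74, SE 0.62, edgeR adjusted p = 7.29e-06), with -4.13 without replicate 2 of 11EM and -5.71 without replicate 2 of 10WK.

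By a stricter rule, at least 10 CPM in every library of a stage and under 1 CPM in every library of the other, 3 miRNAs were present at one end and near absent at the other. miR-128-2-5p and miR-490-3p were present at 11EM, and miR-29b-3p at 10WK. This number depends on the limits. Leaving out a single library gave 3 or 4. With at least 5 CPM asked for it was 5, with at least 100 CPM 0, and with at most 2 counts in each near-absent library 1. miR-206 missed the rule by a single library, replicate 2 of 10WK at 1.05 CPM. Among the members that entered through 1 stage alone, 19 of the 24 from 11EM were called down and 9 of the 13 from 10WK up; these passed the limit through the stage where they are high, so the counts describe the rule as much as the skin. No read at 10WK was counted for miR-302d, a miRNA of the early embryo, nor for miR-34b-3p or miR-7452-5p. Against the floor of 3 counts over the 10WK libraries they were at least 8.61-fold, 8.19-fold and 4.58-fold lower. miR-302d rested mostly on replicate 1 of 11EM with 4.26 CPM, against 0.505 and 1.40 CPM in the others, and without replicate 1 or without replicate 3 of 11EM it no longer reached 1 CPM in 2 libraries. Without replicate 1 of 10WK its call was lost too (edgeR adjusted p = 0.0593), and with DESeq2 it was not called.

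The 20 highest miRNAs of a library took 82.9% ± 1.46 of the counts at 11EM and 86.2% ± 0.0759 at 10WK (SD, n = 3), and 15 miRNAs were among the 20 highest by mean at both stages. Only at 11EM this top held miR-30c-5p, miR-199-3p, miR-199-5p, miR-454-3p and miR-181b-5p, and only at 10WK miR-133a-3p, miR-203a, miR-451, let-7a-5p and miR-100-5p. The 59 up-regulated members together grew from 9.86% ± 0.405 to 29.1% ± 1.69 of the counts, the 87 down-regulated members shrank from 24.5% ± 3.63 to 5.09% ± 0.321, and the members not called held 65.7% ± 3.75 and 65.8% ± 1.67. These shares follow from the calls themselves and are given as a description.

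The largest single loss of share was that of miR-92-3p, the most abundant product of the miR-17 to miR-92 cluster. It had 73857, 109112 and 55996 CPM at 11EM and 19870.2, 22632 and 18181 CPM at 10WK and went from 7.97% to 2.02% of the counts (log2 fold change -1.80, SE 0.24, edgeR adjusted p = 8.53e-06). The 11EM libraries spread widely, yet the lowest of them, 55996 CPM, was above the highest at 10WK, 22632 CPM. The largest gain was that of miR-22-3p, widespread in adult tissues, with 35059.7, 31203 and 32065 CPM at 11EM and 106134, 79103 and 88714 CPM at 10WK or from 3.28% to 9.13% (log2 fold change 1.68, SE 0.13, edgeR adjusted p = 2.57e-08). miR-27b-3p, which shares a cluster with miR-23b and miR-24, had 19508, 29113 and 29389.5 CPM at 11EM and 76396, 62698 and 62759 CPM at 10WK (log2 fold change 1.56, SE 0.20, edgeR adjusted p = 5.26e-06). Neither rise held on the clean-read scale, where the log2 fold changes were -0.02 and -0.16. miR-26a-5p had 66521, 62751 and 62097 CPM at 11EM and 107463, 98778 and 102246 CPM at 10WK, under 2-fold (log2 fold change 0.89, SE 0.12, edgeR adjusted p = 7.27e-06). It was called up when any single 11EM library was left out, with 1.10 to 1.14, and had -0.83 on the clean-read scale.

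The pair of miR-181 main strands, known from lymphocytes and from many developing tissues, was split. miR-181a-5p had 87736, 77796 and 94736 CPM at 11EM and 49973, 45133 and 44509.5 CPM at 10WK (log2 fold change -0.70, SE 0.12, edgeR adjusted p = 0.000105), a change under 2-fold. miR-181b-5p, with the same seed, had 26517, 31048 and 28291 CPM at 11EM and 3475, 3421 and 2956 CPM at 10WK and fell 7.64-fold (log2 fold change -2.93, SE 0.19, edgeR adjusted p = 3.9e-09). All 3 passenger strands also fell, so that 4 of the 5 members were down with a median of -2.93, beside 34.9% called down over all miRNAs tested. miR-454-3p had 26072, 30581 and 19964 CPM at 11EM and 1950.1, 1914 and 1373 CPM at 10WK (log2 fold change -3.69, SE 0.26, edgeR adjusted p = 8.69e-09) and lost its place among the 20 highest.

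The 2 most abundant miRNAs, miR-10a-5p and miR-10b-5p, come from the Hox clusters, whose genes pattern the body axis. miR-10a-5p had 214991, 137913 and 75325 CPM at 11EM and 153366, 162651 and 153337 CPM at 10WK (log2 fold change 0.33, SE 0.29, edgeR adjusted p = 0.333), and miR-10b-5p 97919.8, 107865 and 201386 CPM at 11EM and 92523, 134679 and 124716 CPM at 10WK (log2 fold change -0.00, SE 0.21, edgeR adjusted p = 0.99). The stages overlapped for both and the 11EM libraries held opposite extremes, with replicate 1 highest in miR-10a-5p and replicate 3 highest in miR-10b-5p. Their sum was steadier, 278467 ± 33601 CPM at 11EM and 273757 ± 25988 at 10WK. Without replicate 3 of 11EM the log2 fold change of miR-10b-5p was 0.62, without replicate 1 of 11EM that of miR-10a-5p was 0.92, and on the clean-read scale miR-10a-5p had -1.36. None of the 6 members of the miR-10 and miR-196 list was called, whereas on the clean-read scale 5 were down and the median was -1.58 instead of 0.16. The remaining miRNAs of the 10 most abundant, miR-148a-3p with 28592 ± 1170.4 CPM at 11EM and 20895 ± 2553 at 10WK and miR-30a-5p with 28984 ± 1956 CPM at 11EM and 20414 ± 1587 at 10WK, were not called either (log2 fold change -0.25, SE 0.15, edgeR adjusted p = 0.157, and log2 fold change -0.31, SE 0.14, edgeR adjusted p = 0.0549).

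**Figure D3:**
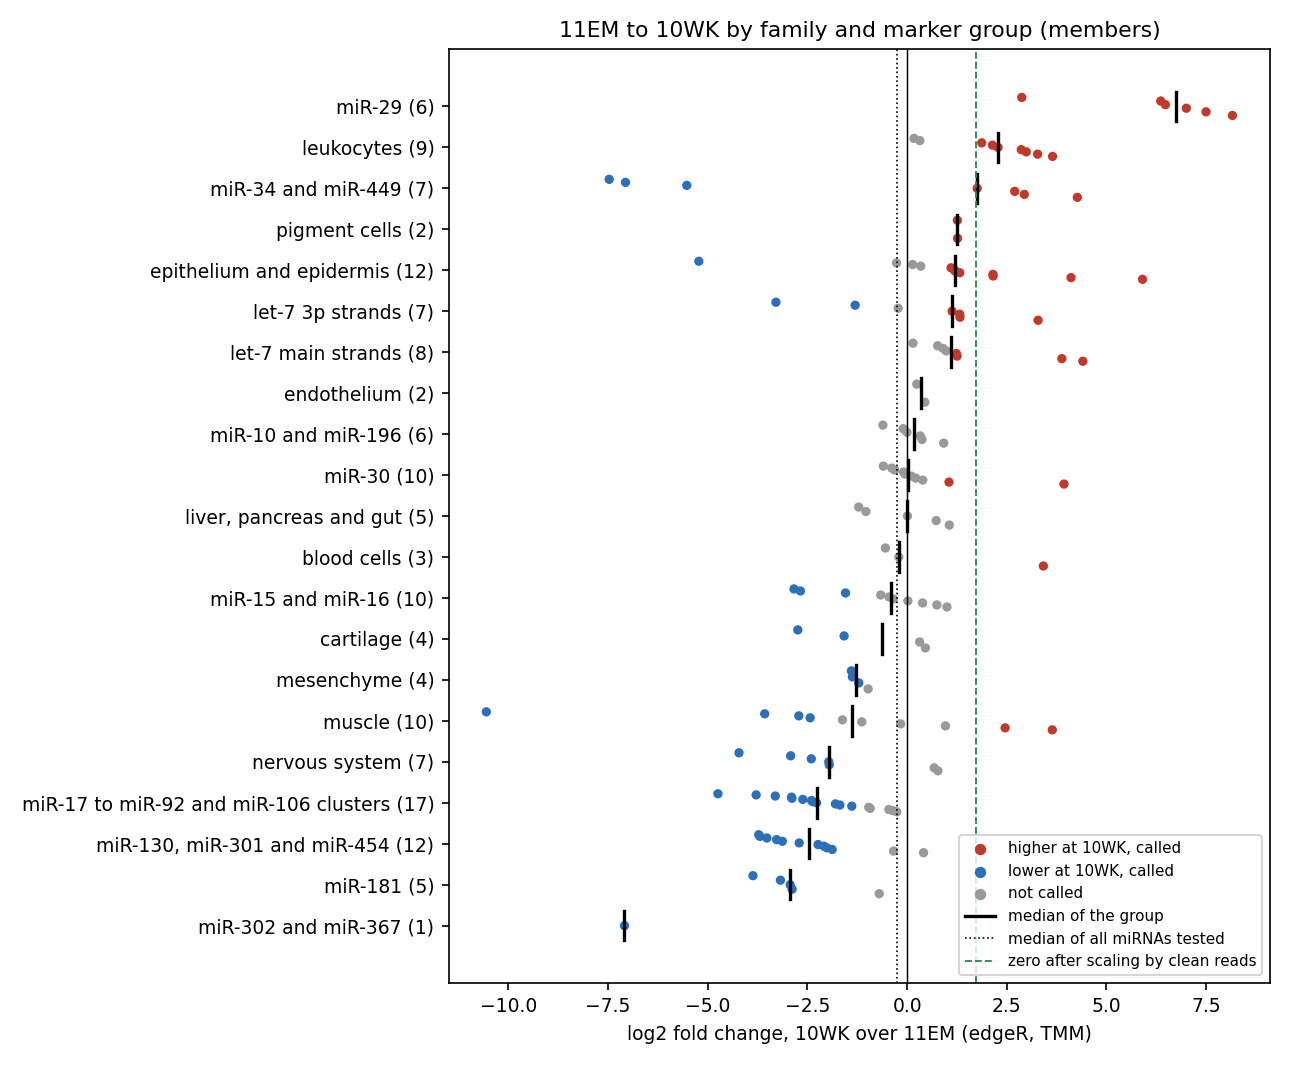
log2 fold change from 11EM to 10WK (x axis; edgeR, TMM) of each member of 21 families and marker groups, with the number of members in brackets; points are miRNAs coloured by call, thick bars group medians, the dotted line the median of all miRNAs tested (-0.26) and the dashed line the value that becomes 0 when libraries are scaled to clean reads (1.73). The 6 miR-29 members lie right of both lines, whereas the medians of let-7, the epithelial, pigment cell, endothelial, miR-10 and miR-196, miR-30 and liver, pancreas and gut groups lie between 0 and the dashed line and turn negative on the clean-read scale.

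Markers of cell types were compared as lists, and their part in the other changes was not tested. Epithelial and epidermal miRNAs were abundant in all 6 libraries, as the label of skin implies, with a sum of 22910 to 46519 CPM at 11EM and 65561 to 75359 CPM at 10WK. Of the 12 members 8 rose, 1 fell and 3 were not called, beside 23.8% called up and 34.9% called down over all miRNAs tested. The median was 1.19 against -0.26 over all miRNAs tested. On the clean-read scale the median was -0.51 with 2 up and 4 down. Besides miR-203a and miR-184-3p, miR-31-5p, known from the growing hair follicle in mice, had 1361, 766 and 764 CPM at 11EM and 3585, 4121 and 3509.99 CPM at 10WK (log2 fold change 2.16, SE 0.26, edgeR adjusted p = 3.22e-06). The miR-200 strands, known for keeping cells in the epithelial state, changed by less. miR-200a-3p had 953, 449 and 514 CPM at 11EM and 1201, 1341 and 1236 CPM at 10WK (log2 fold change 1.18, SE 0.24, edgeR adjusted p = 0.000474), and miR-200b-3p 476, 221 and 159.7 CPM at 11EM and 575, 611 and 669.7 CPM at 10WK (log2 fold change 1.32, SE 0.32, edgeR adjusted p = 0.00189), and neither rise was kept on the clean-read scale, whose median shift of -1.73 exceeds both. miR-200b-5p rose from 14.2 ± 7.62 to 28.5 ± 5.52 CPM, and miR-200a-5p, with 175 ± 92.7 and 127 ± 5.32 CPM, was not called (log2 fold change -0.26). miR-429-3p of the same family had 576 to 1631 CPM at 11EM around the 10WK values of 1086 to 1150, with no call. Replicate 1 of 11EM was the highest of its stage in miR-203a, miR-205a, miR-205b, miR-31-5p and these miR-200 strands, but the lowest in miR-184-3p. Without that replicate miR-429-3p was called up (1.05).

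miR-205a and miR-205b, an epidermal pair with a single seed, went apart. miR-205a had 29497, 18714 and 12664 CPM at 11EM and 35416, 31928 and 45927 CPM at 10WK (log2 fold change 1.10, SE 0.27, edgeR adjusted p = 0.00207), a rise that was lost without TMM factors (log2 fold change 0.90) and without replicate 3 of 10WK (0.89), and turned to -0.60 on the clean-read scale. miR-205b had 11529.8, 9763 and 7803 CPM at 11EM and 218, 187 and 272 CPM at 10WK and fell 37.4-fold (log2 fold change -5.22, SE 0.82, edgeR adjusted p = 4.18e-05). miR-205b made up 33.5% ± 5.06 of the sum of both at 11EM and 0.593% ± 0.0152 at 10WK (SD, n = 3). The share was thus nearly the same in the 3 libraries of 10WK.

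The muscle list had members in both directions. Besides miR-206, miR-499-5p, encoded within a myosin gene, fell (793, 1085 and 2204 CPM at 11EM and 283, 263 and 117 CPM at 10WK; log2 fold change -2.43, SE 0.55, edgeR adjusted p = 0.00111), and so did miR-499-3p and miR-133a-5p, the latter no longer called without replicate 2 of 11EM (-2.12, edgeR adjusted p = 0.0624). Without replicate 2 of 10WK miR-133a-5p was not called either (-2.54, edgeR adjusted p = 0.0505). miR-1b-3p, which differs from miR-206 at 4 positions, rose (14.8, 12.4 and 18.5 CPM at 11EM and 71.4, 74.2 and 72.2 CPM at 10WK, log2 fold change 2.46, SE 0.40, edgeR adjusted p = 5.29e-05). Its partner strand miR-1b-5p rose from a mean of 0.328 to 3.79 CPM on 14 and 46 counts (log2 fold change 3.64). miR-1a-3p, a base away from miR-1b-3p, went from a mean of 181 to 72.2 CPM and was not called (log2 fold change -1.14). miR-133b was lower at 10WK without a call (log2 fold change -1.62). miR-133a-3p, the most abundant of the list, had 5399, 10635 and 6865 CPM at 11EM and 14165, 11290.2 and 13757 CPM at 10WK and was not called (log2 fold change 0.96, SE 0.58, edgeR adjusted p = 0.155). The sum of the list, most of it miR-133a-3p, was 11050 ± 3423 CPM at 11EM and 13982 ± 1539 at 10WK, so muscle miRNAs were present at both ages with a different make-up. Of 10 members 2 rose and 4 fell, near the 23.8% called up and 34.9% called down over all miRNAs tested. The median was -1.38, and on the clean-read scale 1 was up and 7 were down. In the fit of the 2 stages alone 6 were down, and without replicate 2 of 11EM 3 were down. Among the 10 members, miR-206 had entered only through 11EM and miR-1b-5p only through 10WK.

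Leukocyte miRNAs rose in 7 of 9 members, beside 23.8% called up over all miRNAs tested, with a median of 2.28. miR-223 of granulocytes had 27.1, 26.5 and 30.1 CPM at 11EM and 205, 210.4 and 286 CPM at 10WK (log2 fold change 3.27, SE 0.30, edgeR adjusted p = 1.28e-07), and miR-142-5p, found across white blood cells, 464, 688 and 496 CPM at 11EM and 2053, 1565 and 2711 CPM at 10WK (log2 fold change 2.14, SE 0.33, edgeR adjusted p = 3.35e-05). miR-146b-5p, induced by inflammatory signals in mammals, had 172, 217 and 397 CPM at 11EM and 1772, 1715 and 1925 CPM at 10WK (log2 fold change 2.99, SE 0.28, edgeR adjusted p = 2.23e-07). Their libraries did not overlap, and on the clean-read scale the median was still 0.54, with 4 up and 2 down, the latter being the strands of miR-146c. These were not called on the miRNA scale, and miR-146c-5p held most of the sum of the list with 17843 ± 2043 CPM at 11EM and 19449 ± 1467 at 10WK. miR-451, which matures in red blood cells, had 1355, 2758 and 1475 CPM at 11EM and 16564, 15037 and 20847 CPM at 10WK and rose 10.7-fold (log2 fold change 3.42, SE 0.37, edgeR adjusted p = 8.77e-07), whereas miR-144-3p of the same hairpin cluster had 520.3, 769 and 355 CPM at 11EM and 361, 239.6 and 388 CPM at 10WK (log2 fold change -0.54, SE 0.30, edgeR adjusted p = 0.125). The share of blood in the skin pieces was not measured.

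Mesenchymal miRNAs of 1 long antisense transcript in vertebrates, miR-199 and miR-214, fell in 3 of 4 members, and the scarce miR-199b was not called. Over all miRNAs tested, 34.9% were called down. miR-199-3p had 19904, 26334 and 26479 CPM at 11EM and 9419, 7208 and 7951 CPM at 10WK (log2 fold change -1.37, SE 0.15, edgeR adjusted p = 7.63e-07) and miR-214 2331, 3119 and 3603 CPM at 11EM and 908, 1134 and 962 CPM at 10WK (log2 fold change -1.40, SE 0.16, edgeR adjusted p = 1.5e-06). miR-199-5p had a log2 fold change of -1.21. Without replicate 2 or replicate 3 of 11EM miR-199-5p had -0.94 and -0.83, under 2-fold. The list summed to between 32286 and 45315 CPM at 11EM and between 12632 and 15170.4 CPM at 10WK, without overlap. In the cartilage list replicate 3 of 11EM stood apart, with a sum of 22795 CPM against 5801 and 5129 in the other replicates. miR-455-5p (1221, 1331 and 2981 CPM at 11EM and 268, 186 and 261 CPM at 10WK) and miR-455-3p fell, and miR-140-3p had 4372, 3630.4 and 18942 CPM at 11EM and 9189, 11339 and 11224 CPM at 10WK without a call (log2 fold change 0.46, SE 0.42, edgeR adjusted p = 0.338). Without that library the list had 2 up and 1 down, as miR-140-3p and miR-140-5p were called up with 1.83 and 1.95 while miR-455-3p was no longer called (-0.72).

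Of the nervous system list 5 of 7 were called down and none up, beside 34.9% called down over all miRNAs tested. However, 3 of the 5 had entered only through 11EM. With at least 10 CPM asked for in 3 libraries, 2 of 4 fell and the median was -0.64 instead of -1.97. miR-9-3p of neural progenitors had 186, 200.4 and 270.3 CPM at 11EM and 12.3, 10.2 and 8.14 CPM at 10WK (log2 fold change -4.22, SE 0.36, edgeR adjusted p = 6.36e-08) and miR-9-5p 184, 216 and 231 CPM at 11EM and 43.4, 63.0 and 36.8 CPM at 10WK (log2 fold change -1.95, SE 0.23, edgeR adjusted p = 2e-06). miR-124a-3p, miR-124c-3p and miR-137-3p fell from means of 2.21 to 4.56 CPM to between 3 and 9 counts over the 3 libraries of 10WK. The seed of miR-124c-3p, CAAGGUC, is not that of miR-124a-3p, UAAGGCA. miR-219b, with the seed ACAAGAA where that of miR-219a is GAUUGUC, had 520 to 686 CPM and 697 to 1063 CPM (log2 fold change 0.68, SE 0.35, edgeR adjusted p = 0.0954). Without replicate 1 of 10WK 3 of the 7 fell. Without replicate 1 or replicate 3 of 11EM miR-124a-3p lost its call, and without the latter miR-219b and miR-153-3p were called up with 1.02 and 1.36. miR-204 and miR-211, of pigment cells, are listed with 1 mature sequence and stood at a ratio of 1.92 to 2.08 throughout. Together they had 146, 93.9 and 162 CPM at 11EM and 267, 217 and 346 CPM at 10WK, a rise that turned to a median of -0.49 on the clean-read scale. The endothelial strands of miR-126 were not called, with a median of 0.34, but on the clean-read scale both were down with a median of -1.41. The liver, pancreas and gut list, with 5 members, summed to 46.4 to 70.3 CPM in the 6 libraries, with no call, and 3 were down on the clean-read scale.

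The miR-17 to miR-92 and miR-106 clusters and the miR-130, miR-301 and miR-454 family moved mostly down. In the miR-17 to miR-92 and miR-106 clusters 12 of 17 fell, none rose, and the median was -2.27. Over all miRNAs tested, 34.9% were called down. Of the 17, 2 had entered only through 11EM, among them miR-20b-3p, which fell. miR-106-5p had 756, 901 and 1039 CPM at 11EM and 113, 164 and 108 CPM at 10WK (log2 fold change -2.62, SE 0.19, edgeR adjusted p = 1.07e-08) and miR-20b-5p 885, 1087 and 1043 CPM at 11EM and 151, 194 and 156 CPM at 10WK (log2 fold change -2.40, SE 0.15, edgeR adjusted p = 3.9e-09). By contrast miR-19b-3p of the same cluster had 1356, 1331 and 1335 CPM at 11EM and 927, 1074 and 935 CPM at 10WK, a change that was not called (log2 fold change -0.26, SE 0.12, edgeR adjusted p = 0.0788). Strands of 1 cluster thus differed in size of change, with miR-19a-3p and miR-19b-3p near the median of all miRNAs tested. In the miR-130, miR-301 and miR-454 family, with the seed AGUGCAA in its main strands, 10 of 12 fell, with a median of -2.47. Of these, miR-454-5p had entered only through 11EM. miR-130b-3p had 9793, 10304 and 8165 CPM at 11EM and 1258, 1451 and 1092 CPM at 10WK (log2 fold change -2.71, SE 0.14, edgeR adjusted p = 5.79e-10) and miR-301a-3p 4090.5, 3033 and 4132 CPM at 11EM and 399, 344 and 272 CPM at 10WK (log2 fold change -3.27, SE 0.21, edgeR adjusted p = 4.04e-09). miR-130c-3p was apart from them with 1267, 1132 and 1127 CPM at 11EM and 1329, 1312 and 1445 CPM at 10WK, higher at 10WK by less than 2-fold (log2 fold change 0.41, SE 0.12, edgeR adjusted p = 0.00559), although on the clean-read scale all 12 members were down.

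In the miR-15 and miR-16 family, which restrains cyclins, 3 of 10 fell and the median was -0.40, against 8 down and -2.15 on the clean-read scale. These 3 of 10 are near the 34.9% called down over all miRNAs tested. miR-15c-5p had 5228, 6474 and 5550.3 CPM at 11EM and 1851, 1884 and 1461 CPM at 10WK (log2 fold change -1.54, SE 0.18, edgeR adjusted p = 1.5e-06) while miR-15a, a base apart, had 615, 723 and 920.2 CPM at 11EM and 1388, 1196 and 1346 CPM at 10WK, just short of 2-fold (log2 fold change 1.00, SE 0.14, edgeR adjusted p = 1.74e-05). Leaving out any single 11EM library made it a call (1.07 to 1.40). In the miR-30 family 2 of 10 rose, near the 23.8% called up over all miRNAs tested. miR-30e-5p had 43.8, 30.7 and 49.0 CPM at 11EM and 597, 474 and 566 CPM at 10WK and rose 15.3-fold (log2 fold change 3.94, SE 0.20, edgeR adjusted p = 5.79e-10), whereas the far more abundant miR-30a-5p was not called. miR-30e-5p was 0.142% ± 0.0340 of the sum of both at 11EM and 2.63% ± 0.470 at 10WK. The mature sequence of miR-30e-5p is listed with 19 bases and that of miR-30a-5p with 22. On the clean-read scale 1 of the 10 was up and 7 were down.

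Seeds were grouped next, since members of a family can bind the same target sites. The 246 members held 187 seeds, and 33 seeds were shared by at least 2 members (92 members). In 5 of these families all members rose, in 4 all fell, in 6 none was called, and in 5 at least 1 member rose and at least 1 fell. Over all miRNAs tested, 23.8% were called up and 34.9% down. Among the families that rose, miR-204 and miR-211 share 1 sequence, as do let-7a-3p and let-7k-3p. There, miR-29b-1-5p and miR-29b-2-5p of one family and miR-29b-3p of another had entered only through 10WK. In a family that fell, miR-128-2-5p had entered only through 11EM. These counts thus also reflect shared sequences and the rule of inclusion. The 5 families with both directions are named here because of their values. Under the seed GGCAGUG miR-34a-5p rose (9.04 ± 2.64 CPM at 11EM and 51.5 ± 19.6 at 10WK), miR-449a and miR-449c-5p rose, and miR-34c-5p fell, and the summed mean of the family was 124 CPM at 11EM and 116 CPM at 10WK. With their partner strands the miR-34 and miR-449 list summed to 184, 192 and 33.6 CPM at 11EM and 126, 168 and 59.6 CPM at 10WK. Its means thus hide a wide spread, with replicate 3 of 11EM far below the others. The list had 4 up and 3 down of 7, and 1 up and 3 down on the clean-read scale, where the median was 0.03 instead of 1.76. The 3 that fell, miR-34b-3p, miR-34b-5p and miR-34c-5p, had entered only through 11EM, and miR-34a-3p and miR-449a only through 10WK. Under GGAAUGU miR-1b-3p rose, miR-206 fell and miR-1a-3p was not called (log2 fold change -1.14), and the sum of the family went from 1029 to 145 CPM. Under AUUGCAC miR-32-5p rose (8.66, 7.58 and 9.66 CPM at 11EM and 43.2, 32.9 and 39.1 CPM at 10WK; log2 fold change 2.35, SE 0.22, edgeR adjusted p = 2.25e-07), but miR-92-3p held almost all of the sum, 79664 and 20266 CPM. Under GCUACAU miR-221-3p rose (864, 755 and 617 CPM at 11EM and 1502, 1633 and 1351 CPM at 10WK; log2 fold change 1.20, SE 0.18, edgeR adjusted p = 2.53e-05) and miR-222a fell (4892, 5370.2 and 3826 CPM at 11EM and 1487, 1712 and 1310.2 CPM at 10WK; log2 fold change -1.46, SE 0.19, edgeR adjusted p = 7.87e-06), and in vertebrates both hairpins lie close together. The remaining family is that of miR-205a and miR-205b. On the clean-read scale miR-221-3p and miR-205a lose their rise.

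Relatives with at most 2 base differences formed 51 pairs with 60 members, of which 35 were called, near the share of 58.7% over all miRNAs tested. Only in the pair of miR-205a and miR-205b were both called in opposite directions, and the call of miR-205a was not kept under each alternative, as given above. Duck reads can carry bases that fit the chicken sequence of a relative, so the split of reads within such pairs is uncertain, in particular for let-7, miR-29a with miR-29c, miR-30, miR-10 and miR-17 with its relatives. Counted once per sequence, since 3 pairs of names shared their sequence, 143 sequences were called, 56 up and 87 down.

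The strands of a hairpin were compared within each library, where scaling cancels. Of 79 pairs with both strands among the members, the log2 ratio of 5p to 3p counts changed in 37 (adjusted p under 0.05 with limma and at least 2-fold), which is 46.8% of the pairs tested, 18 toward the 5p and 19 toward the 3p strand. Over the alternatives this number was 27 to 40. Among the 37 were let-7j and let-7k, with changes of -2.05 and 2.57. let-7j-5p shares its sequence with let-7a-5p, and let-7k-3p with let-7a-3p. These ratios thus set a strand against part of a shared pool and may not describe 1 hairpin. In no pair was a strand called up and its partner down; both strands rose in 14 pairs and fell in 22. The largest change was in miR-30e, with -5.28, -6.14 and -5.26 at 11EM and -1.21, -1.75 and -1.71 at 10WK (change 4.00, SE 0.26, limma adjusted p = 2.46e-08), so that the 3p strand stayed the more abundant. In miR-100 the ratio was 5.72, 5.46 and 5.18 at 11EM and 9.18, 9.24 and 9.50 at 10WK (change 3.85, SE 0.26, limma adjusted p = 2.46e-08). In miR-133a it was -6.54, -6.45 and -6.35 at 11EM and -9.94, -10.29 and -10.14 at 10WK (change -3.68, SE 0.36, limma adjusted p = 1.13e-06). In each of these a single strand was called, miR-30e-5p up, miR-100-3p down and miR-133a-5p down. The partners miR-30e-3p, miR-100-5p and miR-133a-3p, with log2 fold changes of -0.05, 0.68 and 0.96, were not called. Nor was miR-15b-5p (0.75) in the miR-15b hairpin, although it was called up without replicate 2 of 11EM. A single strand was likewise called for miR-15b, with 4.87, 5.15 and 4.49 at 11EM and 8.0003, 9.01 and 8.19 at 10WK (change 3.56, SE 0.39, limma adjusted p = 3.54e-06), and for let-7c, with 5.72, 5.45 and 6.41 at 11EM and 9.45, 9.35 and 8.99 at 10WK (change 3.41, SE 0.33, limma adjusted p = 1.13e-06). The 3p strands of both fell. Across the changed pairs a change of the dominant strand was found only for miR-9, from near equal counts at 11EM (log2 ratio -0.05 ± 0.17) to an excess of miR-9-5p at 10WK (2.19 ± 0.40).

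**Figure D4:**
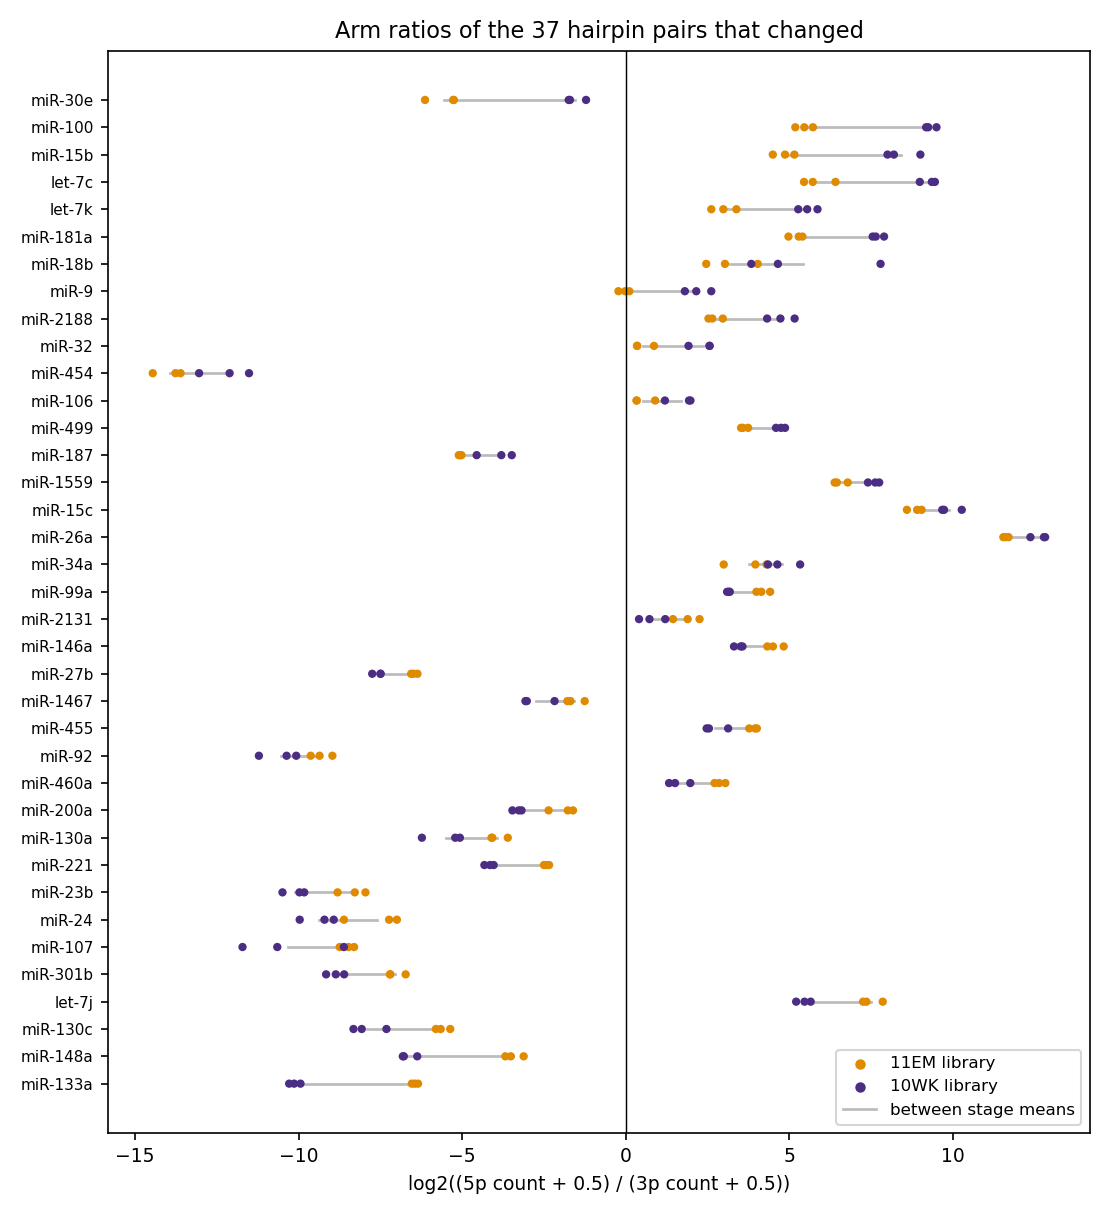
log2 ratio of 5p to 3p counts, with 0.5 added to each, in each of the 6 libraries for the 37 hairpins whose ratio changed; dots are libraries, grey lines join the stage means, and values right of 0 mean more 5p than 3p. The shift to the right is largest for miR-30e and the shift to the left largest for miR-133a, and of the 37 only miR-9 moves across 0 by its stage means. In let-7j and let-7k a strand shares its sequence with a strand of let-7a.

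The stages between the ends were used to describe when the called miRNAs passed the midpoint between their 11EM and 10WK levels (mean log2 of TMM-normalized CPM plus 0.5). Of the 59 that rose, 16 had passed it by 15EM, 6 more by 20EM, 30 by 1DB (1 day after hatch) and 7 by 4WK. Of the 87 that fell, 19 had passed by 15EM, 26 by 20EM, 37 by 1DB, 4 by 4WK and 1, miR-2131-3p, only at 10WK. By 1DB 134 of 146 had passed it at least once. The first crossing was taken, and a later return was not excluded. On this log2 scale miR-489-3p was at 8.89 at 11EM, past the midpoint with 5.21 at 15EM and back at 8.87 at 1DB. Others also returned across their midpoints, among them miR-490-3p, miR-2954, miR-31-3p, miR-449c-5p, miR-200a-3p, miR-200b-3p and miR-214. miR-449a, among the largest rises, was at 4.05 at 20EM, back at 0.93 at 1DB and at 3.78 at 4WK. Passing the midpoint by 1DB thus does not mean that a change lasted. miR-206 and miR-203a were early. miR-206 had 236, 0.551 and 2.37 CPM in the libraries of 15EM, 91.1 and 0 CPM in those of 20EM and at most 1.62 CPM at 1DB, so that 1 library carried the mean of 15EM and of 20EM. The stage mean of miR-203a went from 489 CPM at 11EM to 19557 at 15EM and back to 8008 at 1DB before 33203 at 4WK. let-7b had also passed its midpoint by 15EM, whereas miR-29a-3p climbed at each stage, from 4.72 through 11.4, 20.1, 79.8 and 271 to 533 CPM. The latest rises were those of miR-22-3p, miR-22-5p, miR-31-5p and both strands of miR-142 and miR-146a, which passed by 4WK. 20EM had 2 libraries here, and the extreme level was at an intermediate stage for 28 of the rises and 41 of the falls. For miR-205a that stage was 15EM, with 69285 CPM, above both ends.

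**Figure D5:**
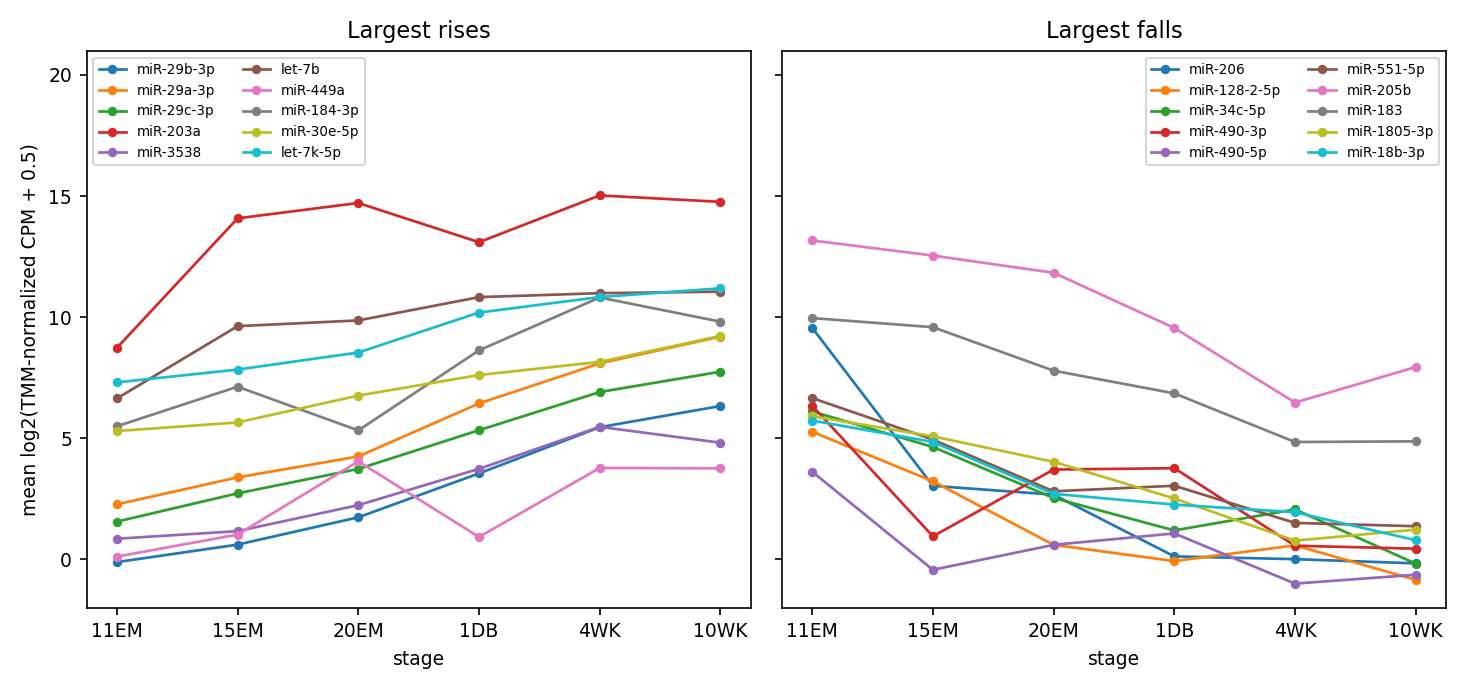
Stage means of log2(TMM-normalized CPM + 0.5) over the 6 stages (3 libraries each, 2 at 20EM) for the 10 largest rises (left) and the 10 largest falls (right). miR-203a and let-7b are past their midpoint by 15EM while the miR-29 strands pass it by 1DB, and miR-206 and miR-490-3p are past theirs by 15EM. miR-490-3p is back above its midpoint at 20EM and 1DB. miR-449a is past its midpoint at 20EM and back below it at 1DB.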

How the data were processed

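Small RNA of duck skin was sequenced by the authors on an Illumina HiSeq after TruSeq small RNA library preparation. Per the study's methods the FASTX-Toolkit was used to trim adapters and poly(A) and to drop poor reads and those below 18 nt, other noncoding RNA was removed allowing 2 mismatches, and the rest was matched to chicken hairpins of miRBase 21 in CLC Genomic Workbench 5.5. The deposited values are raw counts for each mature strand of each hairpin, as the authors made them, with no normalization. Reads of a strand encoded by several hairpins are divided between them, so lines with the same name were summed, and names that share a sequence are still parts of a single pool. Of 18 libraries in the labels 17 were used; replicate 2 of 20EM was not analysed here. Groups came from the stage in the labels.

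miRNAs with 1 CPM or more in 2 or more of the 17 libraries (252) were tested with edgeR 4.0.16 (quasi-likelihood, TMM, R 4.3.3) in a fit of all 6 stages, contrast 10WK minus 11EM, with Benjamini-Hochberg adjustment over the 252. Standard errors are the absolute log2 fold change over the square root of F. Strand ratios, log2((5p + 0.5)/(3p + 0.5)), were tested with limma 3.58.1 over 79 pairs. Alternatives were DESeq2 1.42.0, library totals, clean reads as library size, limma on log2 CPM, other filters and thresholds, the 2 stages alone, a replicate block, the class of a library by its share of clean reads as a covariate and leaving out each library. Tests were checked on simulated data first. Ratios of 1 to 3 counts have exact 95% intervals.

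Named miRNAs are the 10 largest rises and the 10 largest falls among called miRNAs averaging 10 CPM or more in a stage without overlap, those present at only 1 end, the 10 most abundant, the 10 with the largest change in share, the 5 strand pairs with the largest change and members of the lists described. Members, lists and rules were chosen with earlier results of these data known. Python 3.11.15, numpy 2.4.6, scipy 1.17.1, pandas 2.3.3 and matplotlib 3.10.9 were used.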

Additional observations from a re-analysis of the deposited data

How the results depend on the processing

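The number of called miRNAs ran from 101 (changes over 4-fold only) to 187 (scaled to clean reads), against 146. Up and down calls were 22 and 165 with clean reads, 38 and 63 over 4-fold, 57 to 73 and 74 to 87 when a library was left out, and 51 to 65 and 65 to 89 under the remaining alternatives other than the thresholds. Clean reads turned the log2 fold changes of miR-10a-5p (-1.36), miR-205a (-0.60), miR-22-3p (-0.0246), miR-26a-5p (-0.83) and miR-27b-3p (-0.16); the cause was not tested. The log2 fold change of miR-10b-5p, at -0.00, changed sign with DESeq2 (0.15), no filter (0.13), a filter of 10 CPM in 3 libraries (0.0087), the replicate block (0.019) and the class of clean-read share as a covariate (0.0859), and ran from -0.0907 to 0.62 when a library was left out, and miR-148a-3p from -0.39 to 0.011. Present at one end and near absent at the other were 3 miRNAs, 5 with at least 5 CPM asked for, 0 with 100 CPM and 1 with at most 2 counts at the near-absent end. Divided by TMM-normalized library sizes, the counts of the 20 highest miRNAs came to 79.7% at 11EM and 95.01% at 10WK. These values are not shares of the counts, which that scaling leaves unchanged. The 10 highest took 65.8% and 69.4% of the counts. For the other values of named miRNAs the direction and the side of the threshold were kept in 450 cases, gained significance or 2-fold size in 9 and lost it in 3. Of the list counts 579 stayed within 1.5 times and 51 did not.

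The same replicate number did not pair libraries of the 2 stages: the correlations of their deviations from the stage means were 0.041, 0.014 and -0.073 over 182 miRNAs. With the replicate block 60 were up and 87 down.

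The 10WK libraries were shallower than the 11EM libraries, so absence is less certain at 10WK. Stage and depth cannot be told apart. Chicken sequences stood in for those of the duck, and how reads that differ from them were counted was not tested.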

Other observations

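Some changed miRNAs outside the families above were singled out after their values were seen. miR-24-3p, which is made from the same cluster as miR-27b-3p, had 302, 195 and 303 CPM at 11EM and 2385, 2736 and 2218 CPM at 10WK (log2 fold change 3.40, SE 0.17, edgeR adjusted p = 5.79e-10). Its rise was larger than that of miR-27b-3p, and the 3 libraries of each stage lay close together.

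miR-2954 is encoded on the Z chromosome of birds and is higher in males in chicken and zebra finch. It had 621, 4124 and 3338 CPM at 11EM and 413, 504 and 458 CPM at 10WK (log2 fold change -2.38, SE 0.81, edgeR adjusted p = 0.0166), with replicate 1 of 11EM near the 10WK values and the other 11EM libraries far above them. Without replicate 2 of 11EM the log2 fold change was -1.61 (edgeR adjusted p = 0.108), without replicate 3 of 11EM -1.94 (edgeR adjusted p = 0.0649) and without replicate 1 of 10WK -2.29 (edgeR adjusted p = 0.0537). The labels give no sex, and its part in this spread was not tested.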
